A study of Mus musculus with 4 samples.

Results

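The mRNA signals of histone genes were compared between Usp22-depleted and control cells of E14, a line of mouse embryonic stem cells. They were chosen by symbol, as the replication-dependent and variant histone genes that the array's annotation gives as the single gene of a probe set. The rule found 41 histone genes among 19938 genes, 29 of them replication-dependent and 12 variant, testis, oocyte or macro histones. Genes of the major histocompatibility complex, whose names also begin with H2, were not taken. The series holds 4 one-colour Affymetrix arrays. On 2 arrays the cells had received a lentiviral shRNA against Usp22, and on 2 a lentiviral shRNA named Luc as the control. All cells, controls included, were kept feeder-free on gelatin, in 20% FBS with LIF and 2 inhibitors, 1 µM PD0325901 against MEK and 3 µM CH99021 against GSK3. Whether the arrays of a group hold separate cultures is not in the labels, and the spread behind the p-values may be only technical.

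Histones are the proteins around which DNA is wrapped. H2A, H2B, H3 and H4 form the nucleosome core, and linker histone H1 binds the DNA that enters and leaves it. Replication-dependent histone genes lie in clusters, are transcribed in S phase under the coactivator Npat, and make mRNAs that end in a stem-loop bound by Slbp instead of a poly(A) tail. Variant histones such as H2A.Z and H3.3 come from genes outside the clusters, are made through the cell cycle as polyadenylated mRNAs and enter chromatin by their own chaperones. Usp22 is the enzyme of the SAGA coactivator complex that removes ubiquitin from histones H2A and H2B, so histones are its substrates as proteins. Embryonic stem cells divide fast and spend much of their cycle in S phase. On bulk arrays, more cells in S phase and more histone mRNA per cell cannot be told apart.

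Signals are log2 intensities after quantile normalization, and a difference is the depleted mean minus the control mean on that scale. Usp22 itself read 8.23 and 8.29 on the depleted arrays, against 9.41 and 9.36 on the control arrays. It fell by 1.12, or 2.17-fold (standard error 0.27, limma adjusted p = 0.00826). The difference was −1.09 without depleted replicate 1 and −1.15 without depleted replicate 2. Correlations across genes were 0.978 between the depleted arrays and 0.941 between the control arrays. Control replicate 2 stood apart from the depleted arrays, at 0.877 and 0.908, while control replicate 1 correlated with them at 0.951 and 0.974. All 8 markers of embryonic stem cells lay above background, as did 5 of 10 fibroblast markers and 4 of 9 markers of differentiated lineages. Of these 3 lists 0 genes passed the test, but 4 of 8 stem cell markers were lower and 2 higher without overlap (median difference −0.15), as were 5 and 2 of 10 fibroblast markers (−0.28, and −0.08 without control replicate 2) and 5 and 1 of 9 lineage markers (−0.19, and −0.49 without control replicate 1). Summed linear signals were 12015 to 12515 on the depleted arrays against 13148 to 13328 on the control arrays for stem cell markers, 1276 to 1330 against 1269 to 1590 for fibroblast markers and 1016 to 1030 against 1127 to 1290 for lineage markers. The shares without overlap were 75% of stem cell, 70% of fibroblast and 66.7% of lineage markers, against 60.7% of all genes. Of genes above background the share was 74.6%. In the lower direction the markers stood at 50%, 50% and 55.6%, against 33.3% of all genes. The part of these markers in the histone results was not tested. Background here is 6.99, the 95th percentile of the mean signals of 1194 olfactory and vomeronasal receptor genes, which these cells are not known to use. Above it lay 33 of the 41 histone genes by their mean over the 4 arrays, 24 replication-dependent and 9 others.

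Replication-dependent histone genes with a probe set of their own mostly read higher on the depleted arrays, but 0 of the 29 passed the test alone. Probe sets shared by several genes, given below, lay below 0 in H2A, H3 and H4 after quantile normalization and overlapped in H2B. On both depleted arrays 17 of the 29 (58.6%) lay above both control arrays, 3 (10.3%) lay below both, and 9 overlapped. Of all genes, 27.4% were higher and 33.3% lower without overlap. Their median difference was 0.31, with a range from −0.47 to 0.68, against a median of −0.12 over all genes. Their median signal was 8.72 and 8.68 on the depleted arrays, against 8.56 and 8.46 on the control arrays. Among the 12 other histone genes, 3 were higher and 4 lower without overlap, and the median difference was 0.05 (−0.10 without control replicate 2). The difference between these medians was not tested.

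Over all 41 histone genes, 20 (48.8%) were higher and 7 (17.1%) lower without overlap, against 27.4% and 33.3% of all genes. In either direction the shares were 65.9% of histone genes and 60.7% of all genes. Of all 9736 genes above the receptor background, 36.8% were higher and 37.7% lower without overlap (74.6% in all), with a median difference of −0.03. Of the 33 histone genes above it, 16 (48.5%) were higher and 6 (18.2%) lower (66.7% in all), with a median of 0.16. By limma with Benjamini-Hochberg adjustment over all genes, 1 histone gene rose (2.44%) and 0 fell, against 2.73% of all genes called in either direction, 2.62% higher and 0.105% lower. The share called is therefore near that of all genes. At an unadjusted p under 0.05, 8 histone genes passed in the same limma fit (19.5%), against 22.1% of all genes. Of these, 7 were higher (17.1%) and 1 lower (2.44%), against 15.4% and 6.63% of all genes. A difference of at least 1.5-fold without overlap was seen in the higher direction for 5 histone genes (12.2%), against 12.1% of all genes, and in the lower direction for 0, against 3.35%.

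**Figure D1:**
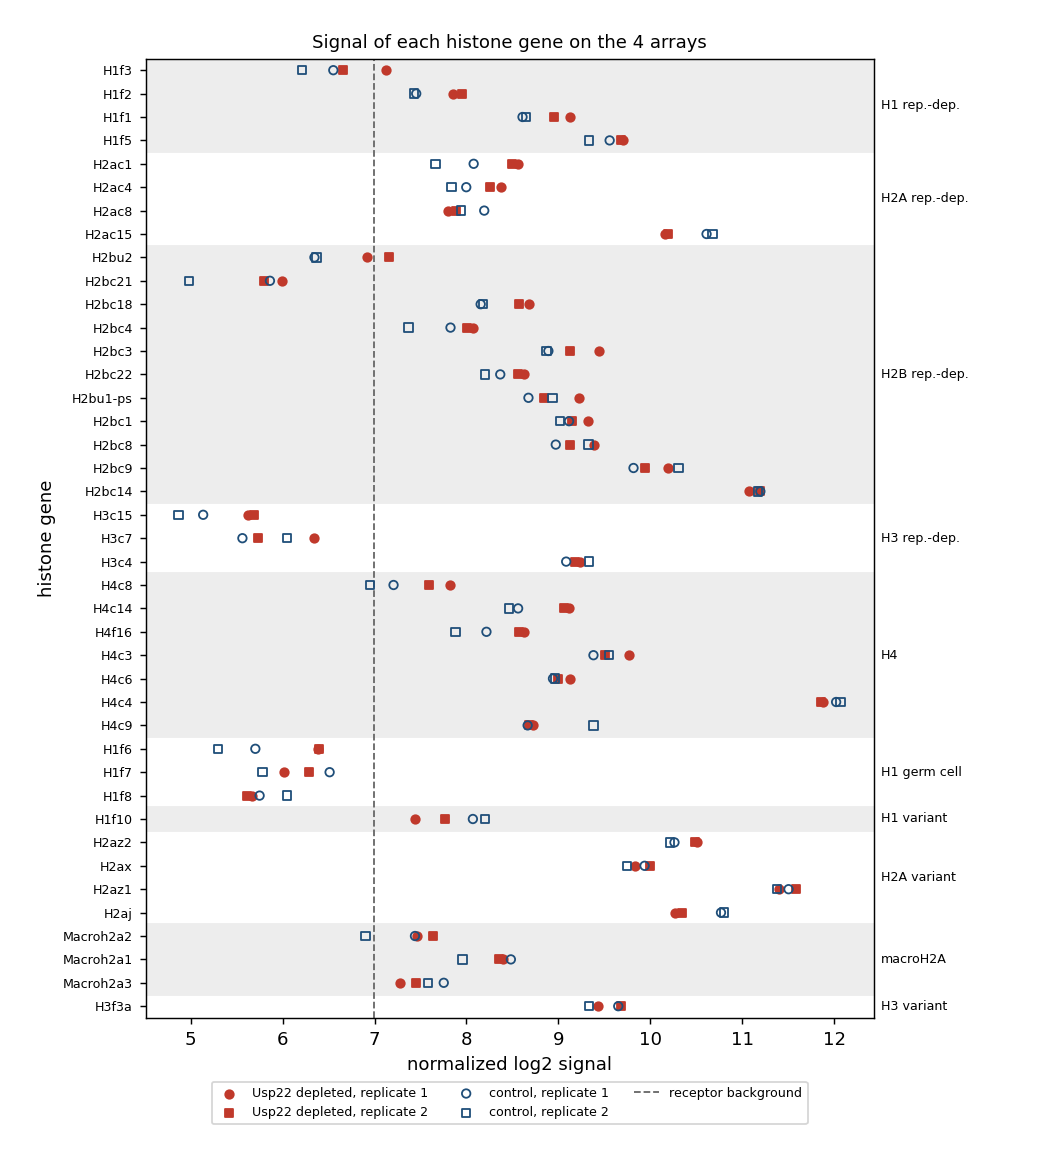
Normalized log2 signal of every histone gene on each array, with the depleted arrays as filled and the control arrays as open points and the receptor background of 6.99 as a dashed line. Signals run from under the background, as for H3c15, to about 12 for H4c4, and most pairs of groups lie close together beside that span.

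**Figure D2:**
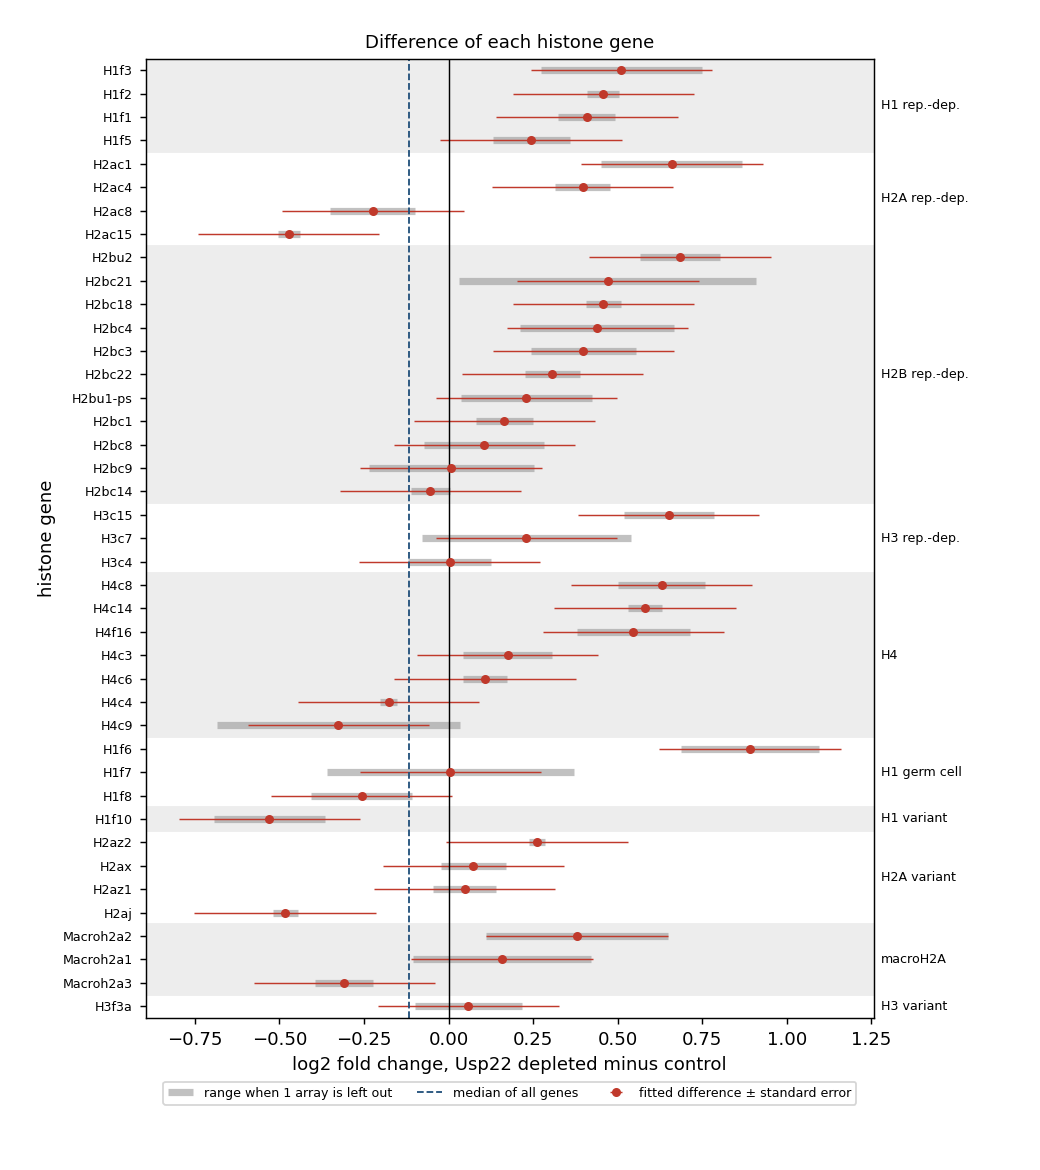
Difference of each histone gene on the log2 scale, depleted minus control, grouped by class, with thin bars of 1 standard error (0.27, shared by all genes in the limma fit), grey bars for the range when 1 array is left out and a dashed line at the median of all genes (−0.12). H1f6 is the single gene that passed the test, and the replication-dependent H1 genes all lie above 0.

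The replication-dependent linker histone genes stood higher together, although 0 of 4 passed the test. H1f1, H1f2, H1f3 and H1f5 encode replication-dependent H1 proteins of somatic cells, and all 4 were higher without overlap, with a median difference of 0.43. Of all genes, 27.4% were higher without overlap. H1f2 read 7.85 and 7.95 on the depleted arrays, against 7.45 and 7.43 on the control arrays (difference 0.46, limma adjusted p = 0.273). H1f1 read 9.12 and 8.95 on the depleted arrays, against 8.61 and 8.65 on the control arrays (difference 0.41, limma adjusted p = 0.315). In both genes the gap between groups was wider than the gap within either group. H1f5, the brightest of the 4, read 9.70 and 9.68 on the depleted arrays, against 9.56 and 9.33 on the control arrays (difference 0.24, limma adjusted p = 0.527), and its difference was 0.13 without control replicate 2. H1f3 read 7.13 and 6.65 on the depleted arrays, against 6.55 and 6.21 on the control arrays, and its mean lay under the receptor background (difference 0.51, limma adjusted p = 0.236). Without depleted replicate 1 its difference was 0.27.

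H1f6, which encodes the testis linker histone H1t, was the histone gene that rose. It read 6.38 and 6.39 on the depleted arrays, against 5.70 and 5.30 on the control arrays, or 6.39 ± 0.0080 against 5.50 ± 0.29 (SD, n = 2 each). The rise was 1.85-fold (difference 0.89, standard error 0.27, limma adjusted p = 0.0415). All 4 readings lay under the receptor background of 6.99. The gene did not pass without control replicate 2 (0.69, limma adjusted p = 0.162), without depleted replicate 1 (0.90, limma adjusted p = 0.830) or without depleted replicate 2 (0.88, limma adjusted p = 0.474). It also missed the threshold on the deposited log2 values (0.73, limma adjusted p = 0.143) and with limma's intensity trend (adjusted p = 0.0968). Of 8 male germ cell markers, 3 lay above the background, with a median difference of 0.12 (−0.22 without control replicate 2) and a summed linear signal of 1406 to 1408 on the depleted arrays, against 1211 to 1267 on the control arrays. Among them Sycp3, of the meiotic synaptonemal complex, rose (1.09, limma adjusted p = 0.0106), with a mean of 6.83, under the background. Its difference was 0.82 without control replicate 2. The protamine gene Prm1 stood at −0.32 (limma adjusted p = 0.416). The part of these markers in the H1f6 result was not tested. The other germline H1 genes were the spermatid gene H1f7 (difference 0.01, and −0.36 without control replicate 2) and the oocyte gene H1f8 (−0.26, lower without overlap), both under the background.

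The promoters of H1f6 and of the somatic H1 gene H1f2 are shown because both genes were higher without overlap, although only H1f6 passed the test, and because their windows hold CCAAT and the H1 element. The windows run from 250 bases before to 50 bases after each start, from RefSeq on GRCm38.p6, and are printed 5′ to 3′ on the gene's strand. Capitals mark matches on either strand to CCAAT, to TATAAA, to the octamer ATTTGCAT or to the H1 element AAACACA. H1f6 lies at chr13:23695561-23695860 (+ strand) and H1f2 at chr13:23738557-23738856 (+ strand).
H1f6: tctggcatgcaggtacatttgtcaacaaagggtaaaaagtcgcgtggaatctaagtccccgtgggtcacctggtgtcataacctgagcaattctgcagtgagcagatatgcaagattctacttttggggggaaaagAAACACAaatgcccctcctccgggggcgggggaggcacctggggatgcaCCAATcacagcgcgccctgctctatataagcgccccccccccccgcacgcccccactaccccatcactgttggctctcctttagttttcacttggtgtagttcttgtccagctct
H1f2: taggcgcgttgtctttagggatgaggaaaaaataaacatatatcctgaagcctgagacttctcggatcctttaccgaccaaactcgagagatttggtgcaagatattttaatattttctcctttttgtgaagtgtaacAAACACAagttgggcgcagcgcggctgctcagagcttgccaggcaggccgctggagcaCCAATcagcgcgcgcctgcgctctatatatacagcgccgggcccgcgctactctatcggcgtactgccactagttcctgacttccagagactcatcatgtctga
A window was given for 34 of the 41 genes, all of which matched RefSeq by gene ID. Each of the pair above holds CCAAT and AAACACA, and neither holds TATAAA in these letters. AAACACA stood in 3 of the 4 replication-dependent H1 windows and in 29.2% of all 24 replication-dependent windows, against 7.18% of the windows of all genes. CCAAT stood in 83.3% of replication-dependent windows, against 37.4% of all, and TATAAA in 66.7%, against 13.6%. The octamer stood in 5 of 8 H2B and 3 of 4 H2A windows and in 0 of the H1 and H4 windows, against 1.74% of all. The H2ac8 window overlaps that of H2bc8, and the H2ac1 window that of H2bc1. The octamer of each such pair is 1 site counted in both families. Of the 10 windows of variant and other histone genes, 7 held CCAAT and 0 held TATAAA. A match is a description of letters and not of a bound site.

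Replication-dependent H2A genes went both ways. H2ac1, which encodes a testis-enriched H2A, read 8.56 and 8.50 on the depleted arrays, against 8.08 and 7.66 on the control arrays. Its difference was 0.66, or 1.58-fold (limma adjusted p = 0.138), and 0.45 without control replicate 2. The difference was 0.87 without control replicate 1. With each array centred on its median the difference was 0.83, and H2ac1 passed (limma adjusted p = 0.0490), as did 947 of all 19938 genes. H2ac4 was also higher without overlap (difference 0.40, limma adjusted p = 0.327). H2ac15, the brightest of the 4, read 10.15 and 10.19 on the depleted arrays, against 10.61 and 10.68 on the control arrays. The arrays of each group lay close together, and the difference was −0.47 (limma adjusted p = 0.264), or −0.22 when arrays were centred on their medians. With limma's intensity trend, which lets bright genes have a smaller error, H2ac15 passed as lower (adjusted p = 0.00439). That setting called 3.07% of all genes and 2 of the 41 histone genes, the other being the variant gene H2aj. H2ac8 stood at −0.22, lower without overlap (limma adjusted p = 0.562).

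H2A genes often face an H2B gene across a short shared promoter. H2ac8 and H2bc8 start 180 bases apart on opposite strands, and H2ac1 and H2bc1 start 281 bases apart. The H2ac8 and H2ac1 windows are shown because these pairs share 1 stretch of promoter between 2 genes and because the pair of H2A genes lay on opposite sides of 0. H2ac8 lies at chr13:23571171-23571470 (− strand) and H2ac1 at chr13:23934187-23934486 (+ strand), with capitals as above.
H2ac8: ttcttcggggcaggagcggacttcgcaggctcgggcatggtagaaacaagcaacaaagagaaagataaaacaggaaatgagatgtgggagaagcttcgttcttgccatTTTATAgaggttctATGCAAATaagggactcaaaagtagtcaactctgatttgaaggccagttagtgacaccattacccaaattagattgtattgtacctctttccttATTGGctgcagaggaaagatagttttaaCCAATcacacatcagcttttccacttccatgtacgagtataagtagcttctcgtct
H2ac1: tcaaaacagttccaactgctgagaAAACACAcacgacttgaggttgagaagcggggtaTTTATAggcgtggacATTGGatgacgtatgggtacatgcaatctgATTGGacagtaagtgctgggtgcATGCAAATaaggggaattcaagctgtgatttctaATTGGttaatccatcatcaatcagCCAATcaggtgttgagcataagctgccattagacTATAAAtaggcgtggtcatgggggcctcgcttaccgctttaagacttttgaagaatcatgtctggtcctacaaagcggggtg
Both windows hold the octamer, TATAAA and CCAAT, and the H2ac1 window also holds AAACACA. H2bc8, across from H2ac8, stood at 0.11 with overlapping groups, and H2bc1, which encodes the testis H2B TH2B, stood at 0.16. The difference within a pair was not tested.

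Replication-dependent H2B genes were on the higher side. Of 11 measured, 6 were higher without overlap, 5 overlapped and 0 were lower, and the median difference was 0.31. The share higher was 54.5% and the share lower 0%, against 27.4% and 33.3% of all genes. H2bu2 read 6.92 and 7.16 on the depleted arrays, against 6.35 and 6.37 on the control arrays (difference 0.68, limma adjusted p = 0.124), with a mean under the receptor background. H2bc18, well above the background, read 8.68 and 8.57 on the depleted arrays, against 8.15 and 8.18 on the control arrays (difference 0.46, limma adjusted p = 0.273). The gap between groups was wider than the gap within either. H2bc3, H2bc4, H2bc22 and H2bc1 were also higher without overlap, by 0.16 to 0.44, and H2bc4 stood at 0.21 without control replicate 2. The brightest members overlapped between groups. H2bc14 read 11.07 and 11.19 on the depleted arrays, against 11.20 and 11.17 on the control arrays (difference −0.05, limma adjusted p = 0.890). H2bc9 read 10.19 and 9.95 on the depleted arrays, against 9.82 and 10.31 on the control arrays (difference 0.01, limma adjusted p = 0.984). H2bc8 and the transcribed pseudogene H2bu1-ps, at 0.11 and 0.23, also overlapped. H2bc21 rested on 1 array: it read 5.995 and 5.79 on the depleted arrays, against 5.86 and 4.98 on the control arrays, and its difference of 0.47 was 0.03 without control replicate 2.

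Few H3 genes had a probe set of their own. H3c15 read 5.62 and 5.68 on the depleted arrays, against 5.13 and 4.87 on the control arrays (difference 0.65, limma adjusted p = 0.145), without overlap but under the receptor background. H3c4, the 1 gene of the 3 above background, read 9.24 and 9.19 on the depleted arrays, against 9.08 and 9.33 on the control arrays (difference 0.00, limma adjusted p = 0.994). H3c7 lay under the background with overlapping groups (difference 0.23, limma adjusted p = 0.550).

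Among 7 H4 genes, which all encode the same kind of core histone, 4 were higher without overlap, 1 lower and 2 overlapped. The shares were 57.1% higher and 14.3% lower, against 27.4% and 33.3% of all genes. H4c8 read 7.82 and 7.59 on the depleted arrays, against 7.21 and 6.95 on the control arrays (difference 0.63, limma adjusted p = 0.158). H4c14 read 9.12 and 9.06 on the depleted arrays, against 8.56 and 8.46 on the control arrays (difference 0.58, limma adjusted p = 0.188). H4f16, beside H2aj on chromosome 6, stood at 0.55 and H4c6 at 0.11, both also higher without overlap. H4c4, with the brightest probe set of the 41 genes, was the lower one. Probe sets differ in how well they bind, so signals do not rank genes by their mRNA. It read 11.88 and 11.86 on the depleted arrays, against 12.02 and 12.07 on the control arrays (difference −0.18, limma adjusted p = 0.645), and its difference turned to 0.016 when arrays were centred on their medians. H4c9 was carried by 1 array, with 8.72 and 8.68 on the depleted arrays, against 8.67 and 9.38 on the control arrays. Its difference of −0.33 was 0.03 without control replicate 2. H4c3 overlapped at 0.17.

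Replication-dependent histone genes of a family are so alike that many probe sets read several of them at once, and such probe sets are outside the rule used here. The array holds 32 that the annotation gives to a histone gene and at least 1 more gene. Of these, 0 passed in a limma fit over all probe sets, which was chosen after seeing the data. In these shared readings the core families H2A, H3 and H4 lay below 0 after quantile normalization. All 10 shared H3 probe sets, each given to 12 symbols, were lower without overlap, with a median difference of −0.29 (−0.15 without depleted replicate 1). Their median signal was 10.83 and 11.11 on the depleted arrays, against 11.32 and 11.21 on the control arrays. Both shared H2A probe sets, of 19 and 20 symbols, were also lower without overlap, at −0.45 and −0.42 (lowest limma adjusted p = 0.293). All 5 shared H4 probe sets were lower without overlap, with a median of −0.18, and the 7 shared H2B probe sets all overlapped, with a median of 0.04. Of all genes 33.3% were lower without overlap, and of those above the receptor background 37.7%. With each array centred on its median, the medians were −0.20 for H2A, 0.31 for H2B, −0.03 for H3 and 0.05 for H4. The median of all genes was −0.09 there. On the deposited log2 values H2A stood at −0.34, H3 at −0.17 and H4 at −0.09, against −0.24 over all genes. Shared H2A lay below the median of all genes both after quantile normalization and on the deposited values. Shared H3 and H4 lay below it after quantile normalization and above it on the deposited values. Centring shifts all deposited differences equally, so it cannot move a family beside that median. Probe sets of 1 family read overlapping mRNAs and are not independent of each other. Single-symbol probe sets of these families may also bind relatives, since the copies are nearly alike, and values of single genes are uncertain to that extent.

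**Figure D3:**
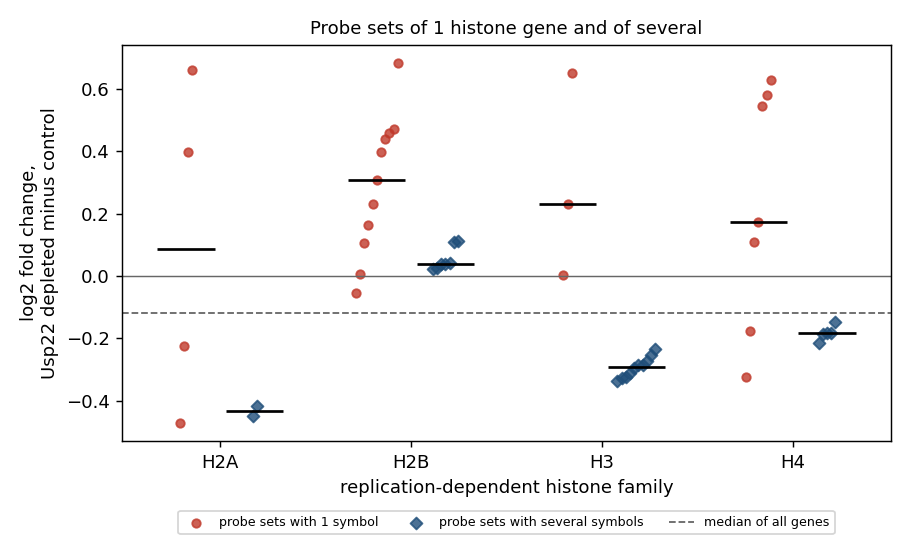
Difference on the log2 scale, depleted minus control, for probe sets with 1 histone symbol (circles) and with several (diamonds) in each replication-dependent core family, with black lines at the medians and a dashed line at the median of all genes (−0.12). The shared probe sets sit below 0 in H2A, H3 and H4, while single-symbol ones lie on both sides of 0 in H2A, H2B and H4 and at or above 0 in H3.

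Replication-dependent genes with dim probe sets had larger differences than those with bright ones. Over the 29 genes, the difference and the mean signal had a Pearson correlation of −0.63 and a Spearman correlation of −0.70. Without control replicate 2 these were −0.51 and −0.54, and among the 24 genes above the background −0.62 and −0.67. Over all genes they were 0.03 and 0.01. The genes share the same 4 arrays and some of their mRNA sequence, and the signal enters both measures, so the correlations are a description. The upper edge of differences also narrowed with signal over all genes, whose 90th percentile was 0.69 between the background and 8, 0.56 from 8 to 9, 0.44 from 9 to 10 and 0.27 above 10.

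**Figure D4:**
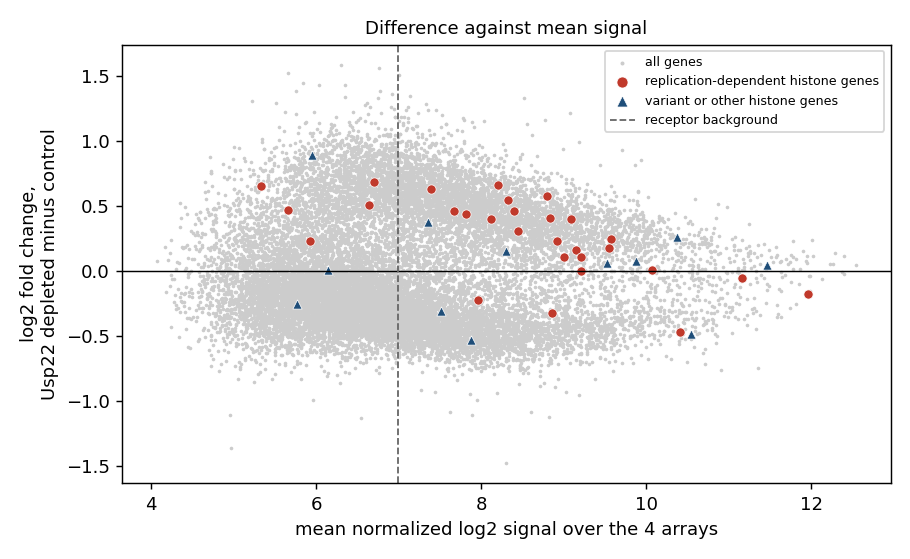
Difference on the log2 scale, depleted minus control, against the mean log2 signal over the 4 arrays, with replication-dependent histone genes as circles, other histone genes as triangles, all genes as grey points and the receptor background as a dashed line. The differences of the replication-dependent genes are smaller at high signal, and the brightest, H4c4 and H2bc14, lie below 0.

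By position, 23 of the genes lie in the large cluster on chromosome 13 and 4 in the cluster on chromosome 3. On chromosome 13 the median difference was 0.23 (0.080 without depleted replicate 1), with 13 genes higher and 3 lower without overlap. On chromosome 3 the genes H2bc18, H2bc21, H3c15 and H4c14 all lay above 0, with a median of 0.53, and H2bc21 and H3c15 were under the background.

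Variant histone genes showed no common direction. H2aj, a variant H2A gene, read 10.26 and 10.34 on the depleted arrays, against 10.77 and 10.80 on the control arrays. The groups were far apart beside their own spread, at 10.3 ± 0.053 against 10.8 ± 0.023 (SD, n = 2 each), and the difference was −0.48 (limma adjusted p = 0.256), or −0.25 when arrays were centred on their medians. H2aj passed as lower with limma's intensity trend (adjusted p = 0.00154) and with the trend and robust settings together (adjusted p = 0.00435), which called 3.61% of all genes. Its promoter window, at chr6:136807998-136808297 (+ strand), is shown because this gene and H2ac15 were the 2 histone genes called lower under those settings.
H2aj: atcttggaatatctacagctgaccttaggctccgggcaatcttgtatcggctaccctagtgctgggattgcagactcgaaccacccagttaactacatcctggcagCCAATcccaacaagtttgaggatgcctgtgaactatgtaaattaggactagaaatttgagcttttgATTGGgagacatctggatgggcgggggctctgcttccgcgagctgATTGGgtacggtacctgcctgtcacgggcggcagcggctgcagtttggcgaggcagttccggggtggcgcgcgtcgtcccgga
The window holds CCAAT in 3 places and none of the other elements, with capitals as above. H4f16, which starts 3817 bases away on the opposite strand, lay on the other side of 0.

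The other H2A variants, none past the test, had differences from 0.05 to 0.26. H2az1, encoding H2A.Z.1, read 11.40 and 11.58 on the depleted arrays, against 11.50 and 11.38 on the control arrays (difference 0.05, limma adjusted p = 0.902), and a second probe set of the gene gave 0.15. H2az2, encoding H2A.Z.2, read 10.51 and 10.49 on the depleted arrays, against 10.26 and 10.22 on the control arrays (difference 0.26, limma adjusted p = 0.498), without overlap. H2ax, the histone phosphorylated at DNA breaks, overlapped at 0.07, and was at −0.02 without control replicate 2. H3f3a, a gene of the replacement histone H3.3, overlapped at 0.06, and 6 probe sets shared between H3.3 and another gene had a median of 0.05.

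H1f10, the replication-independent linker histone H1.10, was the lowest of the 41 by its difference. It read 7.44 and 7.77 on the depleted arrays, against 8.07 and 8.20 on the control arrays (difference −0.53, limma adjusted p = 0.224), without overlap. Dropping control replicate 1 moved its difference to −0.60, and dropping control replicate 2 moved it to −0.46. Macro histones carry a large extra domain and mark repressed chromatin. Macroh2a1 overlapped at 0.16, and stood at −0.11 without control replicate 2. Macroh2a2 was higher without overlap (difference 0.38, limma adjusted p = 0.345), but stood at 0.11 without control replicate 2. The transcribed pseudogene Macroh2a3 was lower without overlap, at −0.31.

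Genes that make, process and place histones were read from 6 lists holding 96 measured genes. Of 28 measured genes of histone transcription and 3′ processing, 2 rose and 0 fell, against 2.62% of all genes higher, and the median difference was 0.31 (0.12 without control replicate 2). Npat, the coactivator of replication-dependent histone genes, read 7.90 and 7.77 on the depleted arrays, against 7.21 and 6.74 on the control arrays (difference 0.86, limma adjusted p = 0.0496). Ccne2, a cyclin E whose kinase acts on Npat, read 7.47 and 7.13 on the depleted arrays, against 6.83 and 5.96 on the control arrays (difference 0.90, limma adjusted p = 0.0397), with a mean under the background. Without control replicate 2 the difference was 0.63 for Npat and 0.46 for Ccne2. Slbp, the stem-loop binding protein, stood at 0.14 (limma adjusted p = 0.709), and at −0.09 without control replicate 2.

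Of the chaperones that act with histone synthesis, 0 of 17 rose or fell, and the median was −0.07. Asf1b, a chaperone of newly made H3 and H4, stood at −0.53, the acetyltransferase gene Hat1 at 0.48 and Chaf1b, a subunit of chromatin assembly factor 1, at 0.45. Among 6 genes of H3.3 chaperones, 1 rose, the HIRA complex gene Ubn1 (0.89, limma adjusted p = 0.0414, and 0.50 without control replicate 2). The median of these genes was −0.32. Among 11 genes of the H2A.Z exchange complexes, 1 rose, Actr6 (0.89, limma adjusted p = 0.0416, and 0.68 without control replicate 2). The list median was 0.26, and −0.01 without control replicate 2. Ubn1 and Actr6 both had means under the background. The differences of the 4 called genes in these lists ran from 0.69 to 0.80 without depleted replicate 1, and from 0.92 to 1.09 without depleted replicate 2.

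The remaining lists held 0 calls in either direction. The 3 measured genes of centromeric H3 deposition were all higher without overlap, against 27.4% of all genes. The centromeric H3 gene Cenpa stood at 0.33 and its loading factor genes Mis18a and Oip5 at 0.67 and 0.66. Without control replicate 2, Mis18a stood at 0.39 and Oip5 at 0.29, and the list median of 0.66 was 0.29. Of 31 genes of DNA synthesis, 13 (41.9%) were higher and 8 (25.8%) lower without overlap, against 27.4% and 33.3% of all genes. Their median was 0.16, and −0.06 without control replicate 2. The lowest p in that list belonged to the primase gene Prim2 (0.83, limma adjusted p = 0.0589; 0.52 without depleted replicate 1), Gins1 of the replicative helicase (0.73, and 0.44 without control replicate 2) and Rfc4 of the clamp loader (0.71). The median of replication-dependent histone genes was 0.31 with all arrays and 0.28 without control replicate 2.

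**Figure D5:**
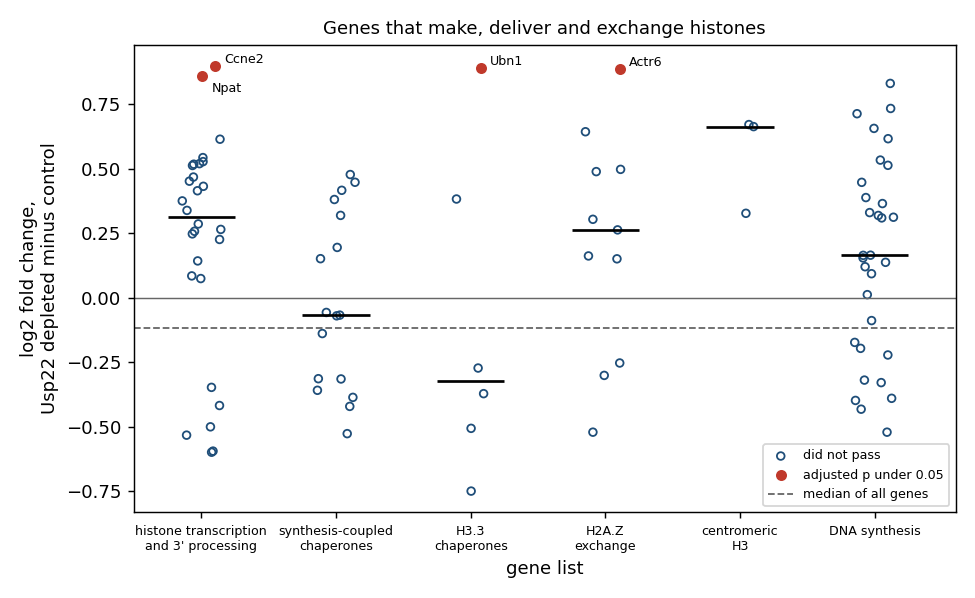
Difference on the log2 scale, depleted minus control, for each measured gene of the 6 lists of histone-related genes, with black lines at the list medians and a dashed line at the median of all genes. The medians run from −0.32 for H3.3 chaperones to 0.66 for centromeric H3 deposition, and the 4 genes that passed the test are marked.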

How the data were processed

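RNA was measured on 4 arrays, 2 of Usp22-depleted and 2 of control E14 cells. Per the labels' protocols, RNA was extracted with Trizol and columns and hybridised as biotin-labelled cDNA. The priming of the cDNA, the summarisation and the normalization before deposit are unstated: not given in the sources used here. The authors deposited 1 linear intensity per probe set for 28856 probe sets, with array medians from 110 to 128 and a lowest value of 16.0. Here their log2 values were quantile-normalized between arrays. GEO's platform annotation gave 1 symbol to 21789 probe sets, several to 1621 and none to 5446. For 999 genes with more than 1 probe set, the brightest one was used. All 19938 genes went into a two-sided limma fit of the 2 groups (version 3.58.1, R 4.3.3, lmFit with eBayes), and calls are at a Benjamini-Hochberg adjusted p under 0.05. With 2 residual degrees of freedom and an infinite prior, all genes share a standard error of 0.27 and the smallest called change was 0.86. An exact permutation test of 2 against 2 arrays cannot go below a p of 0.333. The number of arrays limits the precision.

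The members, classes and lists were chosen with earlier results of these data known. The text names Usp22, every member past the threshold, the 3 brightest members and the 2 largest changes without overlap of each class, and the called genes of each related list, or else the 3 with the lowest p. Other members are given as an account of the whole set. Slbp, the germ cell markers and the genes with printed promoters were chosen after their values were seen. The labels do not say whether the replicate numbers pair the arrays. Deviations from the group means correlated at 0.105, and 2 pairs are too few to decide it. The test was tried on simulated data first. Alternatives were other scaling, averaged probe sets, limma's intensity trend with and without robust settings, filters on dim genes, a block on the replicate number and leaving out each array.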

Additional observations from a re-analysis of the deposited data

How the results depend on the processing

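Of all genes, 544 were called in the fit described, 85 on the deposited log2 values, 947 with each array centred on its median, 840 with genes under the median signal left out, 898 with the replicate number as a block (856 higher, 42 lower; H1f6 the 1 histone gene called, limma adjusted p = 0.0228), and 0 to 9120 with 1 array left out. Histone genes called numbered 1 in the fit described. They numbered 0 on the deposited log2 values and with either filter on dim genes, which removed H1f6, and 2 with centring (H1f6 and H2ac1, higher), 2 with the intensity trend and 2 with the trend and robust settings (H2ac15 and H2aj, lower). With 1 array left out they ran from 0 to 13, and the 13, of which 11 were higher, came without control replicate 1. The top of the range over all genes given above came from that same setting, which leaves a single control array. The calls there therefore do not set histone genes apart. With centring, the median difference was 0.40 over all histone genes, 0.47 over replication-dependent and 0.29 over the other genes, against −0.09 over all genes. The replication-dependent median was 0.24 with genes under the median signal left out, and 0.24 to 0.42 with 1 array left out. The median of the other histone genes ran from −0.10 to 0.19 with 1 array left out. In the related lists, 0 genes were called on the deposited values, 7 with centring and 9 with the trend and robust settings (4 higher, 5 lower). The Usp22 difference was −1.06 on the deposited values and −0.92 with centring, both called. With 1 array left out the Usp22 difference ran from −1.15 to −1.09.

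Signs turned for named genes near 0. On the deposited values H1f7 stood at −0.18 and H2bc14 at 0.090. With centring H1f7 stood at −0.040, H2bc14 at 0.23 and H4c4 at 0.016. With 1 array left out the ranges that crossed 0 were −0.36 to 0.37 for H1f7, −0.045 to 0.14 for H2az1, −0.072 to 0.28 for H2bc8, −0.24 to 0.25 for H2bc9, −0.11 to 0.0047 for H2bc14, −0.12 to 0.13 for H3c4, −0.078 to 0.54 for H3c7, −0.10 to 0.22 for H3f3a, −0.11 to 0.42 for Macroh2a1, −0.69 to 0.034 for H4c9 and −0.022 to 0.17 for H2ax. The causes were not tested.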
